A study of Mus musculus with 12 samples.

Results

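The 8 genes described here, Egr1, Egr2, Egr3, Egr4, Nr4a1, Nr4a2, Nr4a3 and Npas4, encode transcription factors whose RNA rises quickly when neurons are active. They were taken by gene name from a deposited table of 13190 genes, in which all 8 were present. The table gives, for each gene and library, log2(FPKM + 1), where FPKM is a count of fragments scaled to transcript length and library size. The RNA was pulled down with tagged ribosomes from parvalbumin interneurons, fast-spiking inhibitory cells, of the mouse brain cortex.

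All mice were of the C57BL/6 background and carried PV-Cre k/+ and RiboTag k/k, so that Cre made in parvalbumin-expressing cells switches on an epitope tag on a ribosomal protein. The 4 groups of 3 libraries were Nptx2 KO mice in single housing, Nptx2 KO mice in group housing, wild-type mice in single housing and wild-type mice in group housing. The sample titles call single housing social stress. Per the labels, housing began at weaning and lasted at least 4 weeks; the mice's age was not stated there. Nptx2 encodes a secreted pentraxin that gathers AMPA receptors at excitatory synapses onto these interneurons. The labels state 3 biological replicates a group, and the libraries are named here by group and barcode.

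Egr1 to Egr4 are zinc-finger factors, and Nr4a1 to Nr4a3 are orphan nuclear receptors. Both families are switched on within minutes of synaptic input or growth factor signalling, through factors that are already present in the cell, such as CREB and serum response factor. Npas4 is a basic helix-loop-helix PAS factor that responds selectively to calcium entry during neuronal activity, and it shapes inhibitory synapses.

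The letters upstream of these genes were searched for motifs of the kind through which such rapid induction is known to work, and are shown with the matches. The sequences are from the RefSeq promoter table of GRCm38.p6, which gives 250 bases before and 50 bases after a start site, and windows were used for 6 of the 8 factors; Egr1 and Egr3 are not shown. Each line runs 5′ to 3′ on the gene's own strand and covers the matches outside exons with a few bases around them, which leaves out 1 of the 4 in Nr4a3. Of Npas4, whose window lies within an exon of another transcript, 30 bases are shown. Capitals mark TGACG, the core of the cyclic AMP response element bound by CREB, read on either strand (CGTCA on the other), and in Egr2 also a CArG box, the site of serum response factor.
Egr2 (chr10:67537742-67537834, plus strand): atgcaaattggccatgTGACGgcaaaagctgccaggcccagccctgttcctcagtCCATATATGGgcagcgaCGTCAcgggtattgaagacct
Egr4 (chr6:85513678-85513782, minus strand): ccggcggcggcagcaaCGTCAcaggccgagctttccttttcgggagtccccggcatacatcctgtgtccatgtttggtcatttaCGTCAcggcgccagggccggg
Nr4a1 (chr15:101266597-101266826, plus strand): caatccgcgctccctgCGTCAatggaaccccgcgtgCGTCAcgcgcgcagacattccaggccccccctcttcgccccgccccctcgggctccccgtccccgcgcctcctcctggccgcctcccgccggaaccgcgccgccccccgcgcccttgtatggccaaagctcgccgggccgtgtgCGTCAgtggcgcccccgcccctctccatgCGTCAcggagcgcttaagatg
Nr4a2 (chr2:57124094-57124219, minus strand): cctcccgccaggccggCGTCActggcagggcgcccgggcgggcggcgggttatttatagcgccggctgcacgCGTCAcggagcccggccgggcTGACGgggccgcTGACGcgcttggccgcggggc
Nr4a3 (chr4:48045058-48045152, plus strand): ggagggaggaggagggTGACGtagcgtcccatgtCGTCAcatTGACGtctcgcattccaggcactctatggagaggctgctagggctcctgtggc
Npas4 (chr19:4990129-4990158, minus strand): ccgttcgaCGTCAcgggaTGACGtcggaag

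All 6 genes had at least 1 TGACG in their window. A gene was counted if any of its windows held the motif, and 23.2% of 26742 genes had a TGACG. Counted by window, 20.9% of 32544 distinct windows of the same length had one, as did 30.3% of the 13216 windows at least as rich in G and C as the factors' poorest window. The factors' windows were 56.0 to 81.7% G and C, against a median of 53.0% over all windows. Nr4a1, Nr4a2 and Nr4a3 each held 4 matches before the start site, and Egr2, Egr4 and Npas4 each held 2. Egr2 had 5 windows, and its count is from the window chosen for having the most matches. In Nr4a1 the matches lay between 233 and 36 bases before the start site, and in Npas4 between 179 and 165. The other motifs were also searched on both strands. The full palindrome TGACGTCA, which contains TGACG on each strand, was in 0 of 6 factors and 2.05% of all genes. A CArG box was in 1 of 6 factors, Egr2, and in 1.82% of all genes. GCGNGGGCG, the site that Egr factors bind, was in 2 of 6 factors, Nr4a1 and Nr4a2, and in 6.33% of all genes. AAAGGTCA, bound by Nr4a factors as monomers, was in 0 of 6 factors and 1.72% of all genes. Counted by window, GCGNGGGCG was in 5.6% of all distinct windows. It was in 13% of the 13216 windows at least as rich in G and C as the factors' poorest. In those 13216 windows the share was 3.06% for TGACGTCA, 1.19% for the CArG box and 0.689% for AAAGGTCA. These matches describe the letters of the windows only.

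**Figure D1:**
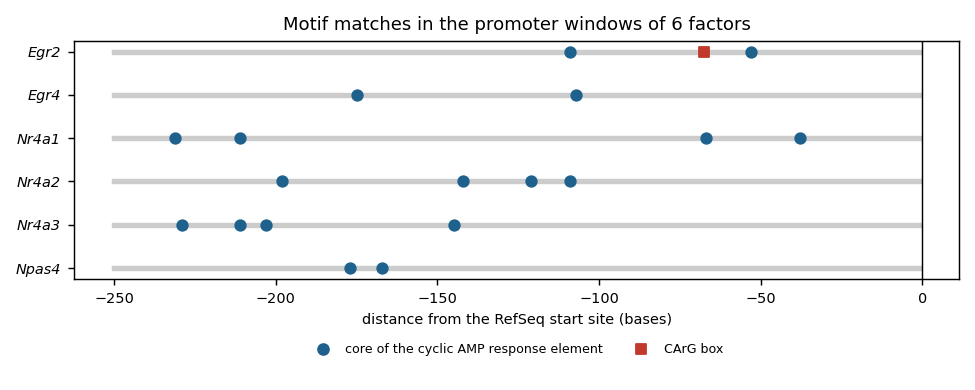
Position of motif matches before the RefSeq start site (0, in bases) in the 6 factors with a window; each grey line is the 250 bases searched, circles are the TGACG core of the cyclic AMP response element on either strand and the square is a CArG box. The 3 Nr4a genes hold 4 circles each, the other 3 genes 2 each, and the square stands in Egr2 between its 2 circles. For Egr2 the window with the most matches is drawn.

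Depth is unknown, since the values hold no counts. Every library has a median of 3.23 log2(FPKM + 1) and a summed FPKM of 412903, so that overall differences between libraries have been removed. Pearson's r between libraries was 0.980 to 0.986 over the 12716 genes with 1 FPKM or more in at least 3 libraries. Markers of parvalbumin interneurons had a summed FPKM of 3789 to 4145 over 10 genes. They were unequal, from a median over the libraries of 1574 FPKM for Gad1 and 1007 for Pvalb down to 1.67 for Erbb4. Nptx2 itself, per gene, was at 2.37 to 2.74 log2(FPKM + 1) in the 6 libraries labelled KO and 2.23 to 2.62 in the 6 labelled wild type. It was therefore not lower in KO, the labels do not state which part of the gene is deleted, and the genotypes are called KO-labelled and WT-labelled below. The Y-linked genes Ddx3y and Eif2s3y were above 0 in 5 libraries, called libraries with Y-linked transcripts here, and at 0 in the other 7; another, Kdm5d, was also at 0.0246 FPKM in AGTTCC. The 5 were all 3 of single-housed WT-labelled mice and CTTGTA and AGTCAA of single-housed KO-labelled mice. In WT-labelled mice this signal and housing cannot be told apart.

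Egr1 was the most abundant of the factors, with a mean of 9.93 FPKM over the 12 libraries, which placed it at percentile 54.1 of all genes in the table. Nr4a1 followed at 5.51 FPKM and Egr4 at 4.04, then Nr4a2 at 2.06, Egr3 at 1.28 and Nr4a3 at 1.16. Npas4 at 0.760 FPKM and Egr2 at 0.353 were lowest, at percentiles 2.26 and 0.220. A gene was tested if it reached 1 FPKM in at least 3 libraries. That left 12716 genes, with 7 of the 8 factors among them. Npas4 passed with 4 libraries, the 3 of group-housed WT-labelled mice and ATGTCA of group-housed KO-labelled mice. Egr2 reached 1 FPKM in 1 library, CCGTCC, and its tests come from a fit to all 13190 genes without that filter.

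Single housing in WT-labelled mice went with low values of every factor, and Egr1 passed the test. Its level, log2(FPKM + 1), was 2.46 in library TGACCA, 2.31 in library ACAGTG and 2.36 in library GCCAAT of single-housed WT-labelled mice. It was 3.71 in library AGTTCC, 4.47 in library CCGTCC and 4.17 in library GTCCGC of group-housed WT-labelled mice. Values of the other factors follow in this order. The 3 single-housed values lay close together, and all were below all 3 group-housed values. Egr1, which encodes a factor needed for lasting forms of memory, fell by 1.74 ± 0.21 on the log2 scale (SE; 95% interval −2.20 to −1.28; adjusted p = 0.0225 by limma, with Benjamini-Hochberg adjustment over 12716 genes). In FPKM the means were 4.20 ± 0.291 in single housing and 16.8 ± 4.51 in group housing (SD, n = 3 each), 3.99-fold lower in single housing. In bulk pulldowns such as these, fewer cells of a type and less RNA per cell cannot be told apart.

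Of the 7 factors tested 1 was called, against 0.0393% of all genes tested. Npas4 passed the filter through the group-housed WT-labelled libraries, where it is high, so passing favoured a difference from that group without forcing one. It is left out of the counts by sign, overlap and unadjusted p in comparisons with that group. The other 6 reach 1 FPKM in at least 3 libraries outside that group. All 6 were lower in single housing without overlap of the groups, against 11.5% of all genes (49.1% of all genes were below 0), and all 6 had an unadjusted p under 0.05 in that direction, against 6.36%. The median difference of the 6 was −0.69 log2, and that of all genes 0.00. The deposited scale understates differences of low genes, here above all Egr2 and Npas4.

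Egr2, a factor known for its part in myelination and early hindbrain patterning, was at 0.12, 0.06 and 0.05 log2(FPKM + 1) in the single-housed WT-labelled libraries, against 0.72, 1.05 and 0.79 in the group-housed ones. All these values but that of CCGTCC stand under 1 FPKM. The groups did not overlap, and in the fit without a filter the difference of −0.78 ± 0.11 missed the threshold (adjusted p = 0.0581 by limma).

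Egr3, known for its need in muscle spindle development, was at 0.88, 0.83 and 0.71 log2(FPKM + 1) in single-housed WT-labelled mice and at 1.23, 1.83 and 1.30 in group-housed ones. Its difference was −0.64 ± 0.17 (adjusted p = 0.232 by limma). The groups stood apart, with CCGTCC well above the other group-housed libraries.

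Egr4 was at 2.16, 2.11 and 1.73 log2(FPKM + 1) in single-housed WT-labelled mice, against 2.53, 3.04 and 2.62 in group-housed ones. The groups did not overlap, with the lowest value in GCCAAT and the highest in CCGTCC. The difference was −0.73 ± 0.16 (adjusted p = 0.194 by limma).

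Among the receptors, Nr4a1 was at 2.13, 2.16 and 2.12 log2(FPKM + 1) in single-housed WT-labelled mice and at 2.83, 3.82 and 3.48 in group-housed ones. The single-housed values were almost equal, while the group-housed values ran up to 3.82 (SD 0.02 in single and 0.50 in group housing). The difference of −1.24 ± 0.30 was not called (adjusted p = 0.232 by limma), and the FPKM means were 3.39 ± 0.0620 in single housing and 9.78 ± 3.51 in group housing.

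Nr4a2, which dopamine neurons need for their identity, was at 1.45, 1.37 and 1.27 log2(FPKM + 1) in single-housed WT-labelled mice, against 1.72, 1.65 and 1.65 in group-housed ones. The groups did not overlap, and AGTTCC, not CCGTCC, was the highest. Its difference was the smallest of the 8 on this scale at −0.32 ± 0.10 (adjusted p = 0.289 by limma).

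Nr4a3 was at 0.80, 0.78 and 0.89 log2(FPKM + 1) in single-housed WT-labelled mice, against 1.17, 1.49 and 1.28 in group-housed ones. The difference was −0.49 ± 0.12 (adjusted p = 0.228 by limma), with no overlap of the groups.

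Npas4 was at 0.48, 0.53 and 0.32 log2(FPKM + 1) in single-housed WT-labelled mice, against 1.10, 1.40 and 1.04 in group-housed ones. All 3 single-housed values were under 1 FPKM and all 3 group-housed values above it. The difference was −0.73 ± 0.14 (adjusted p = 0.194 by limma).

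**Figure D2:**
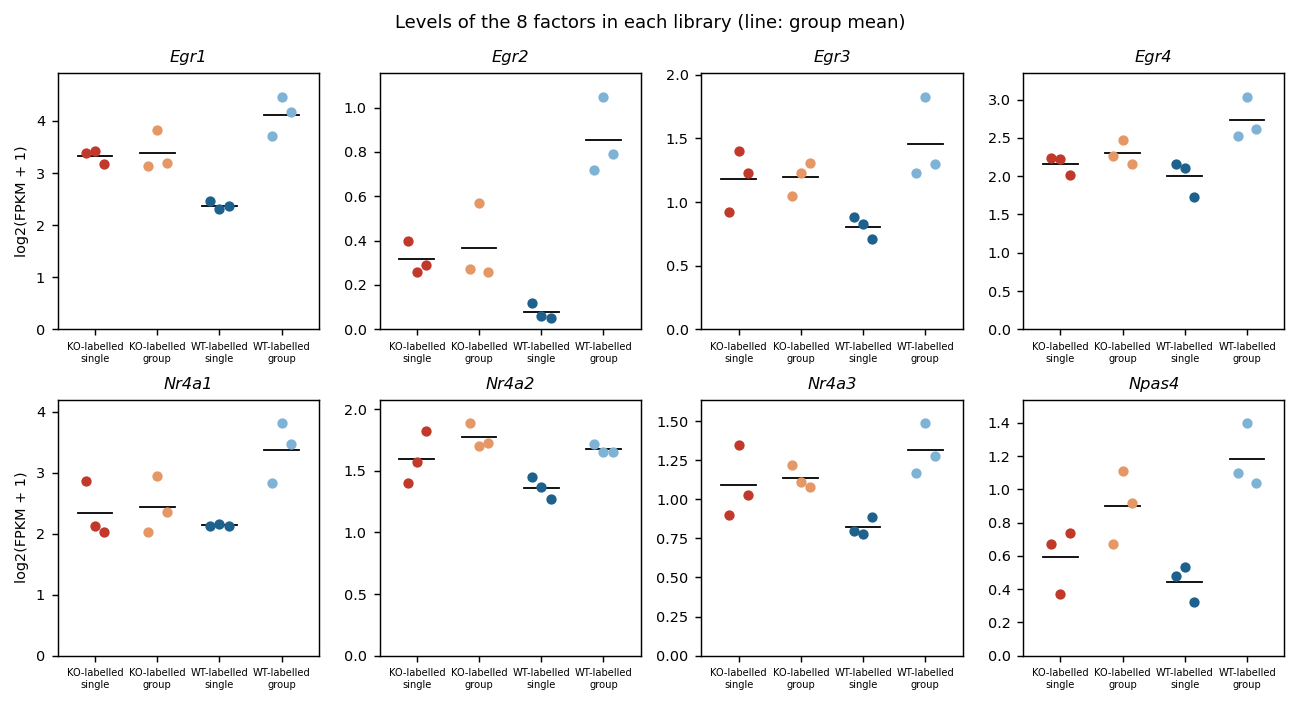
Level of each factor, log2(FPKM + 1), in each of the 12 libraries by group; points are libraries, in the order in which the text lists them, and the line is the mean of the 3. In every panel the 3 single-housed WT-labelled points lie below the 3 group-housed WT-labelled points, and the KO-labelled points of both housings overlap.

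The call of Egr1 was close to the threshold. Without AGTTCC the adjusted p was 0.00624 by limma. Leaving out any 1 of the remaining 5 WT-labelled libraries gave an adjusted p of 0.0651 to 0.0883, with differences of −1.78 to −1.57. It was also lost with a term for Y-linked transcripts (−1.66, adjusted p = 0.111 by limma) and when only the 6 WT-labelled libraries entered the fit (−1.74, adjusted p = 0.0724). The Y-linked term rests on single-housed KO-labelled mice, the 1 group whose libraries differ in it, with CAGATC against the other 2. With it Nr4a1 was at −0.44 (adjusted p = 0.687), closer to 0 than the −1.24 without it. Egr3 at −1.04, Nr4a2 at −0.61 and Nr4a3 at −0.78 were farther from 0 with the term, and Egr4 and Npas4 were at −0.60 and −0.62.

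Other gene lists differed between the same libraries. For scale, 49.1% of all genes tested were lower in single-housed WT-labelled mice. An unadjusted p under 0.05 by limma in that direction was found for 6.36%. Amino acid response genes, which are driven by Atf4, had a summed FPKM of 433 to 481 in single-housed WT-labelled mice and 461 to 902 in group-housed ones, where CCGTCC and GTCCGC were high and AGTTCC was not. In the 7 libraries without this high state, which keep AGTTCC as the 1 group-housed WT-labelled library, the difference of Egr1 was −1.34 (adjusted p = 0.263 by limma), and that of Nr4a1 was −0.69. All 11 tested heat shock genes were lower in single-housed WT-labelled mice with 0 called, 9 of them with an unadjusted p under 0.05. Their median was −0.31, and Cryab, a small heat shock protein, was at −0.94 ± 0.19. Markers of other interneurons, all above 0 in every library, summed to 359 to 461 FPKM in single-housed WT-labelled mice and 508 to 778 in group-housed ones, with 6 of 8 lower and 0 called. Npy, the gene for neuropeptide Y, was at −1.13 ± 0.36, and Sst, the gene for somatostatin, at −0.44 ± 0.12. Microglia markers were lower in 8 of 8 with 0 called, and their summed FPKM had a median of 24.6 in single housing and 27.5 in group housing, with no overlap. The part of these lists in the result was not tested.

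Markers of excitatory neurons, which in cortex express several of these factors strongly, overlapped between the groups in their sum and were split by gene. Of 10 listed, 8 were in the table and none was at 0, and they summed to 280 to 339 FPKM in single-housed WT-labelled mice and 296 to 347 in group-housed ones. Of the 8, 5 were lower and 3 higher with 0 called by limma, and 1 in each direction had an unadjusted p under 0.05. These were Nrgn, the most abundant of them, at −0.28 ± 0.09 and Neurod2 at 0.13 ± 0.06. Their part in the result was not tested. Astrocyte markers summed to 39.2 to 50.7 FPKM in single-housed and 41.1 to 44.6 FPKM in group-housed WT-labelled mice. Oligodendrocyte markers summed to 84.9 to 101 FPKM in single housing and 79.7 to 86.0 FPKM in group housing. Of the 10 parvalbumin interneuron markers 5 were lower and 5 higher in single-housed WT-labelled mice, with 0 called by limma. An unadjusted p under 0.05 was found for 2 of them, both lower, Syt2 at −1.03 ± 0.43 and Cox6a2 at −0.19 ± 0.08.

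In KO-labelled mice no such separation was seen between the housing conditions. Egr1 was at 3.39 log2(FPKM + 1) in library CAGATC, 3.43 in library CTTGTA and 3.18 in library AGTCAA of single-housed KO-labelled mice. It was at 3.13 in library CGATGT, 3.82 in library ATGTCA and 3.20 in library GTGAAA of group-housed KO-labelled mice, and values below keep this order. The groups overlapped, and the difference was −0.05 ± 0.21 (95% interval −0.51 to 0.41). Of the 7 factors tested 0 were called (limma, lowest adjusted p = 0.995), against 0.00786% of all genes, and 0 had an unadjusted p under 0.05, against 2.01% of all genes in the lower direction. All 7 were below 0, against 49.6% of all genes, with a median of −0.10. The differences of Egr1, Egr3, Nr4a1 and Nr4a3 changed sign with 1 or another library left out.

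Nr4a1 was at 2.87, 2.12 and 2.03 log2(FPKM + 1) in single-housed KO-labelled mice and at 2.03, 2.95 and 2.35 in group-housed ones. CAGATC was the high library in single housing and ATGTCA in group housing, and the other values were at most 2.35. Its difference was −0.10 ± 0.30 (95% interval −0.78 to 0.57), and it became 0.15 without ATGTCA. Without CAGATC it was −0.37. This library is also the 1 single-housed KO-labelled library without Y-linked transcripts; in a fit on the libraries without them, which leaves it alone in its group, the difference was 0.43.

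Npas4 was at 0.67, 0.37 and 0.74 log2(FPKM + 1) in single-housed KO-labelled mice, against 0.67, 1.11 and 0.92 in group-housed ones. It had the largest difference of the 7 tested in this comparison, −0.30 ± 0.14 (95% interval −0.62 to 0.01), and its groups overlapped. Nr4a2 was at 1.40, 1.57 and 1.82 log2(FPKM + 1) in single housing and at 1.89, 1.70 and 1.73 in group housing of KO-labelled mice, a difference of −0.18 ± 0.10.

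Egr2 was at 0.40, 0.26 and 0.29 log2(FPKM + 1) in single-housed KO-labelled mice and at 0.27, 0.57 and 0.26 in group-housed ones. Egr3 was at 0.92, 1.40 and 1.23 in single housing and at 1.05, 1.23 and 1.31 in group housing. Egr4 was at 2.24, 2.23 and 2.01 in single housing and at 2.26, 2.47 and 2.16 in group housing, and Nr4a3 at 0.90, 1.35 and 1.03 in single housing and at 1.22, 1.11 and 1.08 in group housing. These 4 groups of values overlapped between housings, with differences of −0.14 to −0.01. ATGTCA was the highest group-housed KO-labelled library in 5 of the 8 factors.

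**Figure D3:**
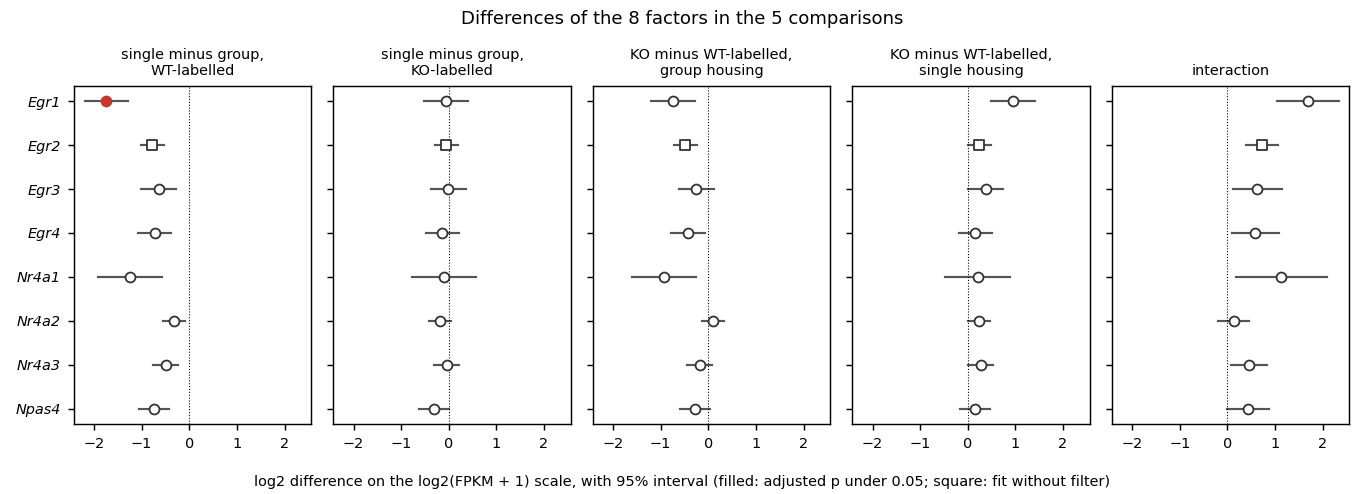
Log2 difference of each factor, with its 95% interval, in the 5 comparisons; circles are genes that passed the filter, squares the fit without a filter (Egr2), and a filled symbol marks an adjusted p under 0.05. Only Egr1 in single versus group housing of WT-labelled mice is filled, at −1.74, and the interaction estimates of all 8 lie to the right of 0, between 0.13 and 1.69.

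The genotypes were compared within each housing condition. In group housing Egr1 was at −0.73 ± 0.21 in KO-labelled against WT-labelled mice, with a mean of 3.38 ± 0.38 log2(FPKM + 1) in group-housed KO-labelled mice and 4.12 ± 0.38 in group-housed WT-labelled mice (SD, n = 3 each). The groups overlapped, since ATGTCA of the KO-labelled group stood above AGTTCC of the WT-labelled one. Of the 7 factors 0 were called (limma, adjusted p = 1), and 0% of all genes were. Of the 6 besides Npas4, 3 had an unadjusted p under 0.05 in the lower direction, Egr1, Egr4 and Nr4a1, against 1.88% of all genes. Nr4a1 was at −0.93 ± 0.30 and overlapped between the genotypes. Egr4 was at −0.43 ± 0.16 and did not overlap, the 1 of these 6 to do so, against 3.86% of all genes in that direction. Egr2 was at −0.49 ± 0.11, and its 3 KO-labelled values were also all below the WT-labelled ones. The remaining differences were −0.28 ± 0.14 for Npas4, −0.25 ± 0.17 for Egr3 and −0.18 ± 0.12 for Nr4a3. Nr4a2 had the opposite sign, at 0.10 ± 0.10. The amino acid response list was high in 1 group-housed KO-labelled library, CGATGT, and in 2 group-housed WT-labelled ones, and its part was not tested. In the 7 libraries outside that state Egr1 was at −0.21. The authors' deposited table gives wild type minus KO, so its signs are turned, and lists 0.73 for Egr1 (adjusted p = 0.991) and 0.49 for Egr2 (adjusted p = 0.792).

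In single housing no factor was called between the genotypes, and Egr1 had the largest difference. It averaged 3.33 ± 0.13 log2(FPKM + 1) in single-housed KO-labelled mice and 2.38 ± 0.08 in single-housed WT-labelled mice (SD, n = 3 each). All 3 KO-labelled values were above all 3 WT-labelled ones. The difference was 0.95 ± 0.21 (95% interval 0.50 to 1.41), and it was not called over all genes (adjusted p = 0.483 by limma). With only these 6 libraries in the fit it passed (adjusted p = 0.0442). Of the 7 factors 0 were called, against 0.0393% of all genes, and all 7 were above 0, where 50.9% of all genes were below. Egr1, Egr3 and Nr4a3 were higher in KO-labelled mice without overlap, 3 of 7 against 7.72% of all genes, and 4 of 7 had an unadjusted p under 0.05, against 4.07%. Egr3 was at 0.38 ± 0.17, Nr4a3 at 0.27 ± 0.12 and Nr4a2 at 0.23 ± 0.10. Egr2, in the fit without a filter, was at 0.24 ± 0.11 with no overlap of the groups. The smallest differences were those of Nr4a1, 0.20 ± 0.30, Egr4, 0.16 ± 0.16, and Npas4, 0.15 ± 0.14. Among the 5 single-housed libraries with Y-linked transcripts, which leave out CAGATC, Egr1 was at 0.93 and Nr4a1 at −0.062. The amino acid response list summed to 444 to 847 FPKM in single-housed KO-labelled mice and 433 to 481 in single-housed WT-labelled mice, high in CTTGTA and AGTCAA but not in CAGATC. Markers of other interneurons summed to 506 to 683 FPKM in single-housed KO-labelled mice and 359 to 461 in single-housed WT-labelled mice, with Sst at 0.64 ± 0.12 and Npy at 1.07 ± 0.36. The part of these lists was not tested. The authors' deposited table, again wild type minus KO, lists −0.95 for Egr1 (adjusted p = 0.485).

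The interaction asks whether the housing difference itself differed between KO-labelled and WT-labelled mice. All 6 estimates besides that of Npas4 were positive, and so was Npas4's, where 50% of all genes were below 0, and 0 were called, against 0.00786% of all genes. Egr1 had the largest estimate, 1.69 ± 0.29 (95% interval 1.04 to 2.34; adjusted p = 0.295 by limma). Nr4a1 was at 1.14 ± 0.43, Egr3 at 0.63 ± 0.23, Egr4 at 0.59 ± 0.22, Nr4a3 at 0.45 ± 0.17 and Npas4 at 0.43 ± 0.20. Nr4a2 was at 0.13 ± 0.15. In the 7 libraries without high amino acid response genes Egr3 was at 0.066, Nr4a3 at 0.15 and Nr4a2 at 0.042, and Egr1 at 1.22. Of the 6 factors besides Npas4, 5 had an unadjusted p under 0.05 in the higher direction, against 4.14% of all genes. The difference in housing response between the genotypes was thus not shown for any factor at the threshold. The comparisons share their groups, so that the low single-housed WT-labelled group enters 3 of the 5.

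The order of the groups was the same in 7 of the 8 factors: group-housed WT-labelled mice highest, then group-housed KO-labelled, single-housed KO-labelled and single-housed WT-labelled mice. The middle pair overlapped in all 8. Nr4a2 differed in that group-housed KO-labelled mice stood above group-housed WT-labelled mice, and those 2 groups overlapped. CCGTCC was the highest of the 12 libraries in 7 factors and GCCAAT the lowest in 5. Summed over the 8 factors, FPKM was 20.0 to 23.8 in single-housed KO-labelled mice, 20.5 to 30.8 in group-housed KO-labelled mice, 13.0 to 15.2 in single-housed WT-labelled mice and 29.7 to 50.6 in group-housed WT-labelled mice.

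The genes most like the factors over the 12 libraries were sought with Pearson's r to the mean of the 7 tested factors' deviations. The 12 libraries fall into 4 groups and share their normalization, so r is given as a description. Fos, the AP-1 subunit induced by the same signals, was nearest (r = 0.965, Spearman's rho = 0.986; r = 0.981 without CCGTCC and GTCCGC). Pianp followed at r = 0.928, Bmp2, a secreted growth factor, at 0.917, Fosb at 0.916 and Dusp6, a phosphatase that ends ERK signalling, at 0.910. Without CCGTCC and GTCCGC these were 0.871 for Pianp, 0.868 for Bmp2, 0.785 for Fosb and 0.827 for Dusp6. Pianp spanned 5.85 to 6.10 log2(FPKM + 1) and Bmp2 1.05 to 1.27, a narrow range beside the 1.76 to 4.04 of Fos. For single factors the nearest of the genes tested was Fos for Egr1 (r = 0.986), Fosb for Egr4 (0.883), Junb for Nr4a1 (0.913) and Fosl2 for Nr4a3 (0.946). It was Hadhb, a subunit of the mitochondrial enzyme of fatty acid oxidation, for Egr3 (0.945), Ap5m1, an adaptor protein subunit, for Npas4 (0.908) and Kcns2, a modifier subunit of potassium channels, for Nr4a2 (0.955). Egr2 did not pass the filter and so was not searched. Its r was higher than that of the named gene for Egr4 (0.932) and for Nr4a1 (0.926). Without the 2 libraries farthest from each factor's median, r dropped most for Egr4 with Fosb, to 0.713, and for Egr3 with Hadhb, to 0.845, and was 0.883 to 0.982 for the other 5 pairs.

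Among the 7 AP-1 factors 1 was called in single against group housing of WT-labelled mice, against 0.0393% of all genes. Fos fell by 1.91 ± 0.23 log2 (adjusted p = 0.0225 by limma), averaging 1.83 ± 0.07 log2(FPKM + 1) in single housing and 3.74 ± 0.31 in group housing. This call too was lost without any 1 of the WT-labelled libraries other than AGTTCC (adjusted p = 0.0706 to 0.0891), with the term for Y-linked transcripts (0.0949), and in the 7 libraries without high amino acid response genes (−1.59, adjusted p = 0.160). Of the 7, 5 were lower, against 49.1% of all genes. Junb was at −0.99 ± 0.24, Fosb at −0.69 ± 0.18 and Fosl2 at −0.63 ± 0.16, with the median of the 7 at −0.63. In KO-labelled mice 0 of the 7 were called, with Fos at −0.21 ± 0.23 and Junb at −0.12 ± 0.24.

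Beyond AP-1, 23 tested genes act as feedback regulators or at synapses after activity. In single-housed WT-labelled mice 20 of them were lower, against 49.1% of all genes, with 0 called (median −0.24). An unadjusted p under 0.05 by limma in that direction was found for 12 of them, against 6.36% of all genes. Dusp6 was at −0.45 ± 0.07, Homer1, a scaffold of glutamate receptors, at −0.49 ± 0.15, Spry4, an inhibitor of receptor tyrosine kinase signalling, at −0.36 ± 0.08, and Rgs4, which shortens G protein signals, at −0.25 ± 0.05. In KO-labelled mice 11 of the 23 were lower, against 49.6% of all genes, with 0 called and a median of 0.01. Of 15 tested other rapidly induced transcription factors 11 were lower in single-housed WT-labelled mice with 0 called (median −0.09). Ier2 was at −0.78 ± 0.18, Klf10 at −0.43 ± 0.13, Nfil3 at −0.41 ± 0.10 and Bhlhe40 at −0.32 ± 0.09.

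Genes that act beside or above the factors were split in direction. Of 7 partners 3 were lower in single-housed WT-labelled mice with 0 called and a median of 0.01. Nab1 and Nab2, corepressors that bind Egr proteins, were at −0.08 ± 0.07 and −0.08 ± 0.11. Rxrg, a retinoid X receptor that can pair with Nr4a1 and Nr4a2, was at −0.19 ± 0.10, and Arnt, a partner of bHLH-PAS factors, at 0.20 ± 0.19. Of 28 tested upstream kinases, phosphatases and constitutive regulators 16 were lower with 0 called, and their median was 0.00. The serum response factor coactivators Mkl1 and Mkl2 were at 0.14 ± 0.08 and −0.20 ± 0.08, and the kinases Map2k2 and Mapk3 at 0.10 ± 0.05 and 0.12 ± 0.06.

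**Figure D4:**
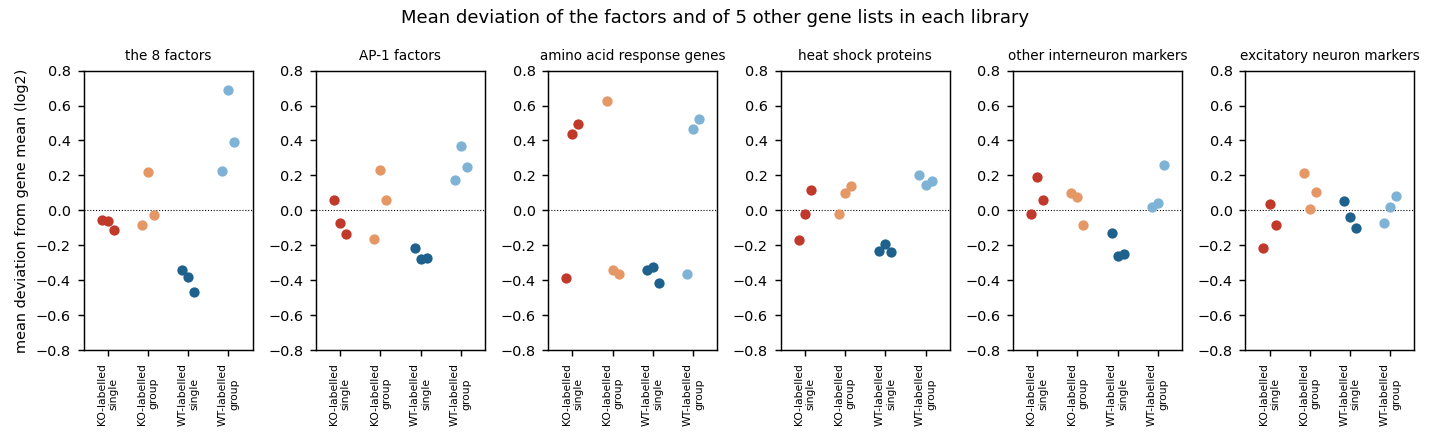
Mean deviation of the 8 factors and of 5 other gene lists from their genes' means over the 12 libraries (log2), by group; points are libraries. The factors run from −0.47 in GCCAAT to 0.69 in CCGTCC with single-housed WT-labelled mice lowest; AP-1 factors, heat shock proteins and other interneuron markers have the same lowest group, amino acid response genes fall into a high set of 5 libraries and a low set of 7, and excitatory neuron markers overlap in all groups.

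The genes lie on 8 different chromosomes. In GENCODE M21 on GRCm38, Egr1 is at chromosome 18, 34859823 to 34864984, Egr2 at chromosome 10, 67535475 to 67542188, Egr3 at chromosome 14, 70077203 to 70082614, and Egr4 at chromosome 6, 85511121 to 85513589. Nr4a1 is at chromosome 15, 101254269 to 101274795, Nr4a2 at chromosome 2, 57106830 to 57124003, Nr4a3 at chromosome 4, 48045153 to 48086447, and Npas4 at chromosome 19, 4984355 to 4990316. No annotated gene overlaps any of the 8, and each value covers the whole gene.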

How the data were processed

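The authors deposited 1 log2(FPKM + 1) value for each gene in each library, with group and barcode but no replicate number in the column names. They also deposited a table of their own comparisons, holding log2 differences, p-values and, per the file headers, score columns (moderated t and F) that were not used here. The submitters' processing notes name the tools HISAT2, StringTie and limma and the build GRCm38; no version or order of these steps is stated. Every library has the same median and the same summed FPKM, so the libraries were made alike before deposit. Quantile normalization would give this, but the sorted values were not compared. Depth is unknown.

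Genes with 1 FPKM or more in at least 3 libraries were tested with limma 3.58.1 (R 4.3.3): a mean for each group over all 12 libraries, moderated variances with a trend (8 residual and 2.18 prior degrees of freedom), two-sided p-values, Benjamini-Hochberg adjustment within each of 5 comparisons, and a threshold of 0.05. The p-values set a difference of group means against the spread between libraries within groups, taken as 1 value per gene for all 4 groups. The fit was tested on simulated data.

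Named genes were the 8 factors and list members called. From each list, up to 4 members with the smallest p in single against group housing of wild type were also named. Further named genes were the 5 nearest the factors' mean by r, and the nearest to each factor. Left out of that search were genes that did not pass the filter and genes with predicted, clone or pseudogene names or no spread. Marker lists are given by sums and defining genes. Factors, lists and tests were chosen with earlier results of these data known.

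Alternatives were log2(FPKM + 0.1), no filter, no variance trend, a term for Y-linked transcripts, the compared groups only, libraries with or without Y-linked transcripts, each library left out and, chosen after seeing the data, the 7 libraries without high amino acid response genes. Of several RefSeq start sites, the one with most motif matches was shown.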

Additional observations from a re-analysis of the deposited data

Results flagged for a closer look

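Egr2 was singled out because its genotypes did not overlap in either housing condition and stood in opposite order in the 2. Opposite signs alone do not set it apart, since 7 of the 8 factors had them. All 3 group-housed KO-labelled values were below all 3 group-housed WT-labelled values (−0.49 ± 0.11 log2), and all 3 single-housed KO-labelled values were above all 3 single-housed WT-labelled values (0.24 ± 0.11). The difference between these differences was 0.72 ± 0.15 log2 in the fit without a filter. It was tested as the interaction and was not called (unadjusted p = 0.000758, adjusted p = 0.507 by limma). Egr2 is under 1 FPKM in 11 of the 12 libraries.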

How the results depend on the processing

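Of the 7 tested factors 1, Egr1, was called in single against group housing of WT-labelled mice. The count was 0 with the term for Y-linked transcripts, 0 with the compared groups only and 0 in the 7 libraries without high amino acid response genes, and 0 to 1 with 1 library left out. In KO-labelled against WT-labelled mice in single housing 1 factor, Egr1, was called with the compared groups only, against 0 otherwise. No other count of factors called changed.

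The lowest and highest values of the reversed results with 1 library left out were −0.18 to 0.17 for Egr1, −0.12 to 0.12 for Egr3, −0.37 to 0.15 for Nr4a1 and −0.17 to 0.053 for Nr4a3 in single against group housing of KO-labelled mice, and −0.062 to 0.36 for Nr4a1 in KO-labelled against WT-labelled mice in single housing. With the term for Y-linked transcripts, and with libraries without these transcripts only, the housing difference in KO-labelled mice was 0.00364 for Egr1 and 0.43 for Nr4a1. With that term, and with libraries that have the transcripts only, Nr4a1 was −0.062 in KO-labelled against WT-labelled mice in single housing. In the 7 libraries without high amino acid response genes Nr4a1 was 0.22 in single against group housing of KO-labelled mice, and Egr3 was 0.046 and Nr4a2 −0.0052 in KO-labelled against WT-labelled mice in group housing. The cause was not tested.

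Over all genes, single against group housing of WT-labelled mice gave 5 calls, 2 to 9 with 1 library left out, 24 with the Y-linked term, 8 with the compared groups only and 48 in the 7 libraries. The other comparisons gave 1 call over all genes in single against group housing of KO-labelled mice (1 to 39 under other settings, 2 to 6 with 1 library left out), 0 in KO-labelled against WT-labelled mice in group housing (0 to 30, and 0 to 11), 5 in single housing (4 to 39, and 5 to 9) and 1 for the interaction (0 to 46, and 0 to 8). Egr2 was fitted only without a filter. Where an arm keeps 1 library, that library is assumed to vary like the others. No paired analysis was possible because the columns carry no replicate numbers. Depth is unknown, so values under 1 FPKM (Egr2 and most of Npas4) have no counting interval.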
